A study of Mus musculus with 6 samples.

Results

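The microvillus structure and scaffold genes are Vil1, Ezr, Pdzk1, Slc9a3r1, Slc9a3r2, Cdhr2, Cdhr5, Myo7b, Espn and Ush1c, which encode the actin bundlers, membrane linkers, adhesion proteins and scaffolds of brush border microvilli. They were chosen by name, and the probe set of each was taken where the array's annotation gave it exactly 1 gene symbol. This left 9 of the 10 genes among 22180 genes tested, each with 1 probe set. The probe set of Pdzk1 is shared with Gpr89 in the annotation, so Pdzk1 was not analysed here.

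The series measured total RNA of 6 mouse kidney samples, taken at 4 weeks of age, each on 1 Affymetrix whole-transcript array, to examine what haplo-insufficiency of Pals1 in nephrons does. Mpp5 encodes Pals1, a scaffold that binds Crumbs at the apical side of epithelial cells. The labels place 3 samples in the Cre-negative and 3 in the Cre-positive group. All carry the label of a mixed background and received no special treatment. The labels name a Pals1/Mpp5 conditional knockout line, on a background spelled C56Bl/6, and transgenic Six2-Cre mice, whose Cre acts in cells that give rise to nephron tubules and podocytes but spares the ureteric lineage of the collecting duct. The sources used here give neither the number of conditional alleles per group nor whether each sample is a separate mouse, so p-values reflect the spread of these 6 samples alone, some of which may be technical. Array values are log2 after RMA, a scale on which 1 unit is a doubling of signal. Differences are Cre-positive minus Cre-negative with the standard error (SE) of the limma fit and n = 3 per group, and "rose" or "fell" is used at a limma adjusted p under 0.05.

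Microvilli are finger-like extensions of the apical membrane held up by a bundle of parallel actin filaments. In the kidney they are densest on the proximal tubule, where they form the brush border across which most filtered solute is taken back. Villin, espin and plastin-1 bundle the actin, ezrin ties the filaments to the membrane, and scaffolds with PDZ domains (NHERF1, NHERF2 and PDZK1) hold transporters there. Neighbouring microvilli are linked at their tips by the protocadherins CDHR2 and CDHR5, which are anchored inside the cell by harmonin (Ush1c), ANKS4B, the motor myosin-7b and its light chain CALML4.

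The arrays gave the following frame. Mpp5 averaged 8.71 ± 0.06 (SD, n = 3) without Cre and 8.10 ± 0.09 (SD, n = 3) with Cre, so it fell by 0.61 ± 0.09 (limma adjusted p = 0.00232). Whether its probe set covers the deleted exons is not stated, so this is a limited check of the labels. Defining kidney transcripts were present in every array, such as Umod, the uromodulin gene of the thick ascending limb, at 12.48 to 12.88. Xist, a transcript of female cells, was 10.76 in Cre-negative replicate 1, 10.70 in replicate 2 and 4.00 to 4.29 in the remaining 4 arrays, so Cre-negative replicate 3 is the only Cre-negative array without this female transcript. Differences of the 9 microvillus genes are therefore also given against that array alone, which equals the estimate with sex as a second factor, and calls of other genes lost with that factor are named. Adrenal cortex transcripts were carried by Cre-negative replicate 2, with Cyp11b1 at 11.10 against 3.85 to 4.24 elsewhere, and skeletal muscle transcripts by Cre-positive replicate 2, with Myh4 at 7.72 against 3.93 to 4.86. Calls of the genes and lists below are given with and without both of these arrays.

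Among the 9 measured microvillus genes, Cdhr2, Vil1 and Myo7b fell, Ezr rose and 5 did not pass. Of all 22180 genes, 11.1% fell and 10.7% rose, 21.8% together. The differences of the 9 genes ran from -1.09 to 0.37 with a median of -0.33, against a median of -0.011 over all genes, and 8 of the 9 lay below 0, as did those of 52.1% of all genes. In all 9 the Cre-positive values did not overlap the Cre-negative values, which held for 38.5% of all genes. For each of the 9 the exact two-sided permutation test over the 6 arrays gave p = 0.10, the smallest that 3 against 3 arrays allow. 4 of the 5 that did not pass had limma adjusted p between 0.0664 and 0.079. At an adjusted p under 0.10, where 28.8% of all genes passed (14.6% lower and 14.2% higher), 7 of the 9 were lower and 1 was higher, leaving Espn. With sex as a second factor 2 of the 4 calls held, those of Cdhr2 and Vil1, where 9.15% of all genes passed (5.05% lower and 4.1% higher). Without both arrays with other tissues the same 2 genes passed, where 4.39% of all genes were lower and 3.96% higher.

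**Figure D1:**
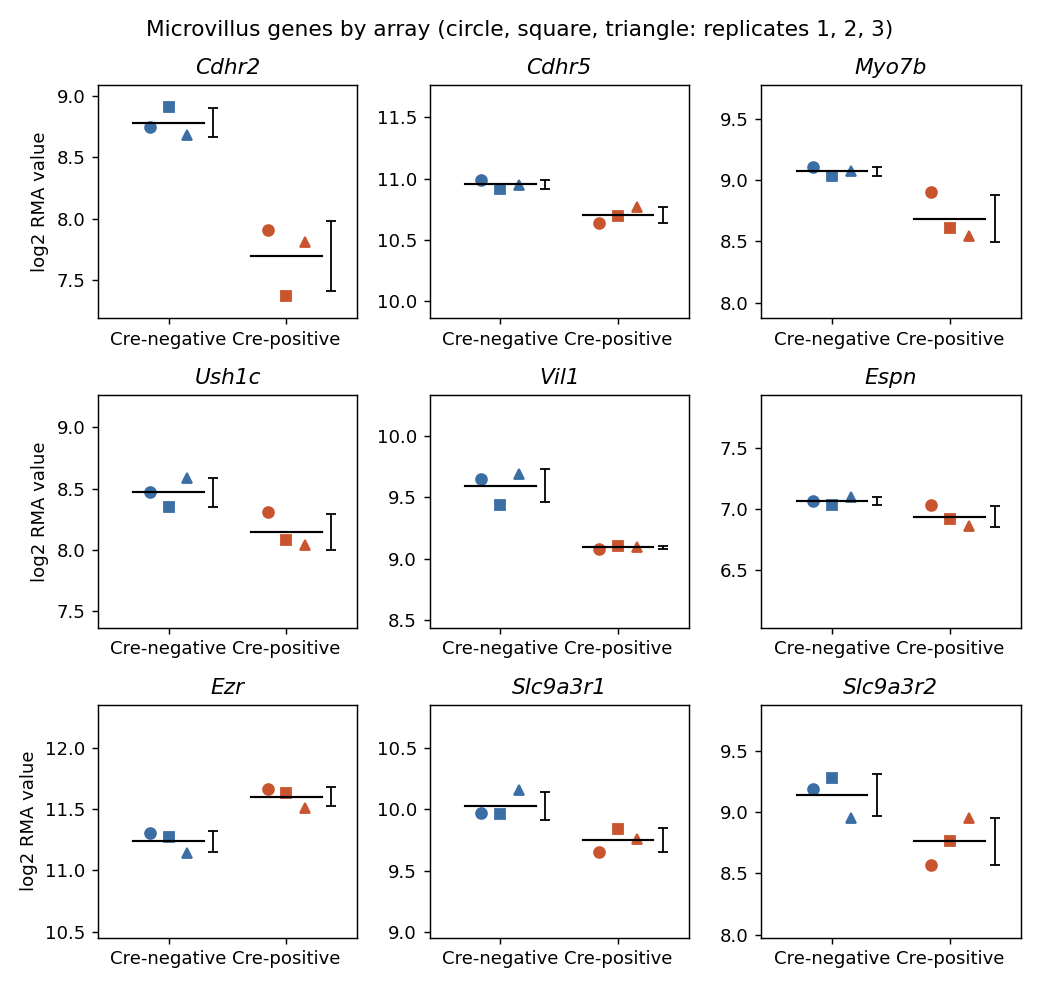
Log2 RMA values of the 9 measured microvillus genes in each array, in panels that all span the same height (vertical axis: log2 value). Symbols are replicates, horizontal lines are group means and bars are ± 1 SD (n = 3). The Cre-positive arrays lie below the Cre-negative arrays for every gene but Ezr, where they lie above.

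The protocadherin Cdhr2 showed the largest difference of the 9 genes. Its probe set (17287486, Entrez gene 268663) read 8.75, 8.91 and 8.68 in Cre-negative replicates 1 to 3 and 7.91, 7.37 and 7.81 in Cre-positive replicates 1 to 3. All Cre-positive values lay at least 0.771 below the lowest Cre-negative value, and the lowest of them was in the array with muscle transcripts. Cdhr2 fell by 1.09 ± 0.15 on the log2 scale (limma adjusted p = 0.00195), to a linear level of 0.471 of the Cre-negative level (95% interval 0.37 to 0.598). The difference was -0.99 against the male Cre-negative array (adjusted p = 0.0389 with sex as a second factor) and -0.86 without both arrays with other tissues (adjusted p = 0.0161). Leaving out any 1 array kept the call, with differences from -1.20 to -0.92.

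Cdhr5, the protocadherin that pairs with CDHR2 across the gap between microvilli, showed a smaller difference. It read 10.99, 10.92 and 10.95 in the Cre-negative and 10.64, 10.70 and 10.77 in the Cre-positive arrays. The groups were 0.149 apart, yet the difference of -0.25 ± 0.08 did not pass (limma adjusted p = 0.0664), and it was -0.24 against the male Cre-negative array. Within each array, Cdhr2 relative to Cdhr5 was lower in all Cre-positive than in all Cre-negative arrays, by 0.84 in the mean (-0.75 against the male Cre-negative array). The exact permutation test of this difference gave p = 0.10, the smallest possible, and 0.133 adjusted over the 4 pairs of microvillus genes compared this way, which were chosen after their values were seen.

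Inside the tip complex, the motor gene Myo7b fell by 0.39 ± 0.11 (limma adjusted p = 0.0409). It read 9.11, 9.03 and 9.07 in Cre-negative and 8.90, 8.61 and 8.54 in Cre-positive arrays, with Cre-positive replicate 1 the closest to the other group. This call is near the threshold. It was lost on leaving out any array except Cre-positive replicate 1 (adjusted p 0.00998 to 0.126, differences -0.50 to -0.32), with sex as a second factor (-0.39, adjusted p = 0.224) and without both arrays with other tissues (-0.37, adjusted p = 0.221). Ush1c, which encodes the scaffold harmonin, read 8.47, 8.35 and 8.59 in Cre-negative and 8.31, 8.08 and 8.04 in Cre-positive arrays. Its groups were 0.041 apart and its difference of -0.33 ± 0.11 did not pass (limma adjusted p = 0.0688), with -0.44 against the male Cre-negative array.

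The other genes of this tip complex gave values in the same range. Anks4b, the ankyrin scaffold that binds harmonin and myosin-7b, read 7.37, 7.37 and 7.36 in Cre-negative and 6.75, 6.57 and 6.91 in Cre-positive arrays. It fell by 0.62 ± 0.10 (limma adjusted p = 0.00424). Calml4, the calmodulin-like light chain of myosin-7b, fell by 0.73 ± 0.17 (limma adjusted p = 0.0195), and by 1.11 against the male Cre-negative array, in which it was highest at 10.75. Counted together, 4 of the 6 genes of the adhesion complex (Cdhr2, Myo7b, Anks4b and Calml4) fell and 0 rose, Cdhr5 and Ush1c did not pass, and the median was -0.51 (-0.53 against the male Cre-negative array). Of all genes 11.1% fell, 5.05% with sex as a second factor and 4.39% without both arrays with other tissues. Anks4b and Calml4 are counted again in the microvillus core list below. With sex as a second factor the falls of Cdhr2 and Calml4 passed, while Anks4b had limma adjusted p = 0.0575. Without both arrays with other tissues 1 of these 4 calls held, that of Cdhr2, while Anks4b was at -0.53 (adjusted p = 0.056) and Calml4 at -0.88 (adjusted p = 0.0738). The Calml4 call was also lost without Cre-positive replicate 1 (adjusted p = 0.0534) or 3 (adjusted p = 0.0552).

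Vil1 encodes villin, which bundles, caps and severs actin filaments and is a long-used marker of brush border cells. It read 9.65, 9.44 and 9.69 in Cre-negative and 9.08, 9.10 and 9.09 in Cre-positive arrays. The Cre-positive values were nearly identical, with an SD of 0.01 against 0.14 in the Cre-negative arrays, and lay 0.336 below the lowest of these. Vil1 fell by 0.50 ± 0.09 (limma adjusted p = 0.00754), to 0.705 of the Cre-negative level (95% interval 0.606 to 0.82). The difference was -0.60 against the male Cre-negative array (adjusted p = 0.0399 with sex as a second factor) and -0.59 without both arrays with other tissues (adjusted p = 0.0371). Every fit that left out 1 array kept the call, with differences from -0.58 to -0.46.

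Espn encodes espin, another actin bundler. It showed the smallest difference of the 9 genes, reading 7.06, 7.03 and 7.10 in Cre-negative and 7.03, 6.92 and 6.86 in Cre-positive arrays. The groups were separated by 0.004 only, and the difference of -0.12 ± 0.08 did not pass (limma adjusted p = 0.364, 95% interval -0.32 to 0.07). Against the male Cre-negative array it was -0.16.

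Ezr encodes ezrin, the linker between actin and membrane proteins and the member of the ERM family (ezrin, radixin, moesin) that predominates in epithelial microvilli. It was the only one of the 9 that rose, reading 11.30, 11.27 and 11.14 in Cre-negative and 11.66, 11.63 and 11.51 in Cre-positive arrays. All Cre-positive values lay at least 0.213 above the highest Cre-negative value. The rise of 0.37 ± 0.09 (limma adjusted p = 0.0222) put the Cre-positive level at 1.29 times the Cre-negative level (95% interval 1.12 to 1.49). The size held while the call did not: leaving out any array except Cre-positive replicate 3 ended it (differences 0.32 to 0.41, adjusted p 0.0202 to 0.0806). It was 0.46 with adjusted p = 0.0747 with sex as a second factor and 0.37 with adjusted p = 0.161 without both arrays with other tissues.

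Ezrin is also made outside the proximal tubule, and transcripts of other cells moved in the same arrays. Of all genes 10.7% rose and 11.1% fell, and of 7 collecting duct markers 3 rose and 2 fell. The summed levels of these markers were 12.15 to 12.36 in Cre-negative and 12.32 to 12.87 in Cre-positive arrays (log2 of summed linear values). The rises were those of the principal cell genes Aqp2 (0.91 ± 0.23), Scnn1b (0.54 ± 0.12) and Scnn1g (0.56 ± 0.12), and the falls those of the intercalated cell genes Slc4a1 (-1.02 ± 0.15) and Atp6v1g3 (-0.46 ± 0.12). The rises of Scnn1b and Scnn1g held with sex as a second factor, while Aqp2 had limma adjusted p = 0.137, Slc4a1 0.0507 and Atp6v1g3 0.353. Without both arrays with other tissues 1 of the 5 calls held, that of Slc4a1. All 5 tubular injury markers rose, among them the keratin gene Krt18 (1.72 ± 0.11), with summed levels of 9.33 to 9.50 against 12.36 to 12.66, and all 5 calls held with sex as a second factor and without both arrays with other tissues. Their part in the Ezr difference was not tested.

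Slc9a3r1 encodes NHERF1, the scaffold whose PDZ domains hold the sodium phosphate cotransporter and the sodium proton exchanger in the brush border and whose tail binds ezrin. It read 9.97, 9.96 and 10.16 in Cre-negative and 9.65, 9.84 and 9.76 in Cre-positive arrays. The groups were 0.119 apart and the difference was -0.28 ± 0.10 (limma adjusted p = 0.079) and -0.41 against the male Cre-negative array. Within each array, Ezr relative to Slc9a3r1 was higher in all Cre-positive than in all Cre-negative arrays, by 0.65 in the mean, and Ezr relative to Vil1 by 0.87 (exact permutation p = 0.10 for each, the smallest possible, and 0.133 adjusted over the 4 pairs). These pairs, too, were chosen after their values were seen. In the remaining pair, Slc9a3r1 relative to Slc9a3r2, the groups overlapped, with a change of 0.10 (exact permutation p = 0.60). Against the male Cre-negative array that change was -0.22.

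Slc9a3r2 encodes NHERF2, a close relative of NHERF1 that in the kidney is also found in podocytes and endothelium. It read 9.19, 9.28 and 8.95 in Cre-negative and 8.57, 8.76 and 8.95 in Cre-positive arrays. The nearest values of the groups, both in replicate 3, were 0.004 apart. The difference of -0.38 ± 0.13 did not pass (limma adjusted p = 0.0738) and was -0.19 against the male Cre-negative array. Some podocyte and endothelial markers fell in the same arrays: 4 of 5 podocyte markers with 0 rising (summed levels 9.85 to 10.24 in Cre-negative and 9.10 to 9.16 in Cre-positive arrays), and 3 of 6 endothelial markers with 0 rising (12.54 to 12.61 and 11.89 to 12.32). Of all genes 11.1% fell and 10.7% rose. The other 3 endothelial markers did not pass, with 1 of them above 0. Among the falls, Nphs1, which encodes nephrin, was at -1.41 ± 0.14, and Kdr, a receptor for vascular growth factor, at -1.18 ± 0.13. With sex as a second factor, and likewise without both arrays with other tissues, 3 of the 4 podocyte falls held (not Wt1) and 1 of the 3 endothelial falls, that of Kdr, while Cdh5 and Emcn lost theirs. Their part in the Slc9a3r2 values was not tested.

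**Figure D2:**
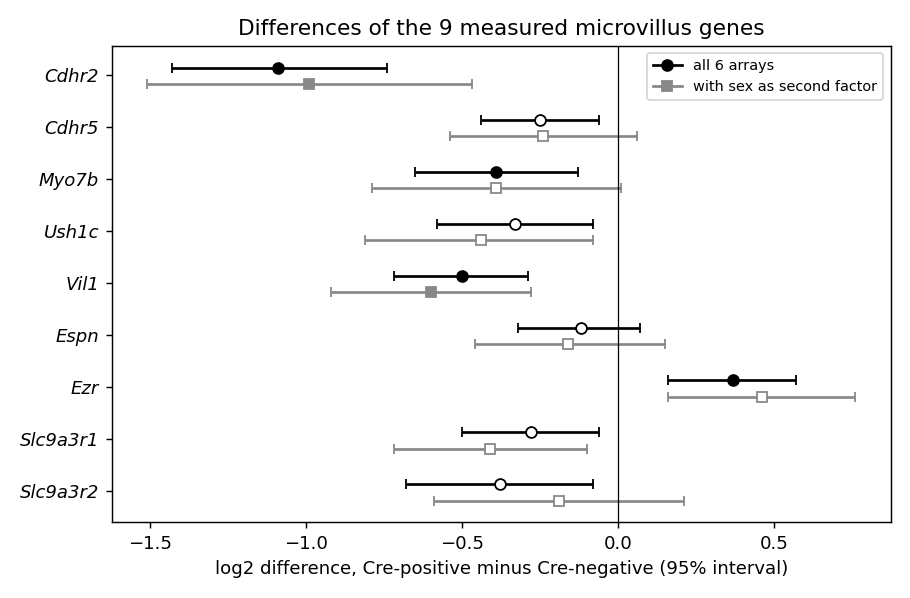
Log2 difference, Cre-positive minus Cre-negative, of the 9 measured microvillus genes with 95% intervals from limma (horizontal axis), for all 6 arrays (black circles) and with sex as a second factor (grey squares). Filled symbols passed the test at adjusted p under 0.05, which with the second factor are Cdhr2 at -0.99 and Vil1 at -0.60.

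The start regions of the genes that moved farthest in each direction are shown so that their sequence can be set beside their values: Cdhr2 and Vil1, whose falls held with sex as a second factor, and Ezr, which rose. The windows are the 250 bases before the annotated start, from RefSeq on GRCm38.p6, 5′ to 3′ on the gene's strand. They lie at chr13:54701213-54701462 (plus strand) for Cdhr2, chr1:74409134-74409383 (plus strand) for Vil1 and chr17:6782781-6783030 (minus strand) for Ezr. Capitals mark matches, on either strand, to GGGCGG (a GC box), of which the Cdhr2 window holds none.
Cdhr2: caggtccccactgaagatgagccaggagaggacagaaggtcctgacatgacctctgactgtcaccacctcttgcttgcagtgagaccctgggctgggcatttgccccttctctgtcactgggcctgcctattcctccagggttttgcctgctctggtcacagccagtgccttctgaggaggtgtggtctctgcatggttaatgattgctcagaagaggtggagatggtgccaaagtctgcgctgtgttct
Vil1: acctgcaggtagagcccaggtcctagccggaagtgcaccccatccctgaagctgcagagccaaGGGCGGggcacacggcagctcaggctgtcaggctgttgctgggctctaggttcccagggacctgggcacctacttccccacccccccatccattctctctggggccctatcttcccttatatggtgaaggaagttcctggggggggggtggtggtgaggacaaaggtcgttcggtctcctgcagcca
Ezr: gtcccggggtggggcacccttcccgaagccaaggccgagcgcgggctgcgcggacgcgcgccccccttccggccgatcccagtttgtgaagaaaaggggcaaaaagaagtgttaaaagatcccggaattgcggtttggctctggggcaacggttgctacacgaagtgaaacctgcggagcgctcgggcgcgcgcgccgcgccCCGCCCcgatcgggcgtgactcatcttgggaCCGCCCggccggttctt

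Start windows were searched for 9 of the 10 genes, Pdzk1 included and Myo7b not. Both strands were read, and no match overlapped another. Some genes have several annotated starts, which gave 13 windows of 250 bases. The GC box GGGCGG was found in 8 of the 13, against 32.7% of all 32851 windows of this length, and at some start of every gene but Cdhr2 and Cdhr5. The Vil1 window holds 1, at -187, and the Ezr window 2, at -48 and -17. The TATA box TATAAA was found in 0 of the 13, against 12.4% of all windows. The core AAAGTCCA of sites of HNF4 factors was also found in 0, against 1.01%. The GC content was 56.0% for Cdhr2, 62.8% for Vil1 and 67.2% for Ezr, against a median of 52.4%. These matches describe letters, not binding.

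Of 4 measured transcription factors of brush border epithelia, 1 fell and 0 rose, where 11.1% of all genes fell and 10.7% rose. Hnf4a read 11.31, 11.27 and 11.24 in Cre-negative and 10.92, 10.62 and 11.01 in Cre-positive arrays and fell by 0.42 ± 0.11 (limma adjusted p = 0.0322), a call lost on leaving out any Cre-negative array or Cre-positive replicate 2 (adjusted p 0.0704 to 0.104) with sex as a second factor (adjusted p = 0.227) and without both arrays with other tissues (adjusted p = 0.181). Hnf4g (-0.30 ± 0.17) and Cdx2 (-0.08 ± 0.09) did not pass.

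Further genes of the microvillar actin core and membrane were set beside these members. Of 15 listed 12 were measured, and 4 fell and 0 rose, with a median of -0.17 (-0.16 against the male Cre-negative array). Of all genes 11.1% fell and 10.7% rose. At an unadjusted p under 0.05 by limma, which 33.4% of all genes met in either direction, 6 of the 12 were lower and 2 higher. The higher were Cobl (0.35 ± 0.11) and Myo1d (0.32 ± 0.11), with limma adjusted p = 0.0583 and 0.0909. Among the lower, Tmigd1 (-0.54 ± 0.19) and Myo6 (-0.24 ± 0.08) did not pass, with limma adjusted p = 0.0775 and 0.0813. Besides Anks4b and Calml4, the falls were those of 2 actin-binding proteins. Pls1, which encodes the bundler plastin-1, read 9.71, 9.78 and 9.57 in Cre-negative and 8.51, 8.59 and 9.00 in Cre-positive arrays, a difference of -0.99 ± 0.14 (limma adjusted p = 0.00214). Eps8, whose product sits at microvillar tips and caps and bundles actin, read 9.89, 9.86 and 9.93 and then 9.44, 9.32 and 9.34, a difference of -0.53 ± 0.08 (limma adjusted p = 0.00315). Both passed with sex as a second factor. Among the 3 bundlers villin, plastin-1 and espin, the transcript differences thus ran from -0.99 to -0.12. Without both arrays with other tissues, 1 of the 4 falls held, that of Pls1, and Eps8 had limma adjusted p = 0.0549.

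In the wider ERM group, 2 of 8 genes fell, 1 rose and the median was -0.03 (-0.07 against the male Cre-negative array), where 11.1% of all genes fell and 10.7% rose. Podxl, which encodes the sialomucin podocalyxin (-1.27 ± 0.15), and Clic5, which encodes an ezrin-associated protein (-0.83 ± 0.12), fell, with limma adjusted p = 0.00103 and 0.0027. Both calls held without both arrays with other tissues, and Clic5 lost its call with sex as a second factor (adjusted p = 0.0511). Podxl and Clic5 are strongly made by podocytes and endothelium. Of their markers, 4 of 5 for podocytes and 3 of 6 for endothelium fell in the same arrays (above), and this link was not tested. Of the genes closest to ezrin, Msn, which encodes moesin, rose by 0.54 ± 0.13 (limma adjusted p = 0.0226), and Rdx, which encodes radixin, was at -0.27 ± 0.08 (adjusted p = 0.0594). Msn read 10.77, 10.61 and 10.58 in Cre-negative and 10.92, 11.32 and 11.34 in Cre-positive arrays. Its call was lost with the mean of its 2 probe sets (0.29, adjusted p = 0.102), with sex as a second factor (0.61, adjusted p = 0.107), without both arrays with other tissues (0.46, adjusted p = 0.194), and on leaving out Cre-negative replicate 2 or 3 or Cre-positive replicate 2 or 3 (adjusted p 0.0575 to 0.08). Moesin is abundant in leukocytes, and 6 of 7 myeloid markers rose and 0 fell, with summed levels of 10.26 to 10.40 in Cre-negative and 11.31 to 12.27 in Cre-positive arrays, among them Cd14 (2.56 ± 0.12). Of these 6 rises 4 held with sex as a second factor, and the same 4 without both arrays with other tissues (not Adgre1 and Ptprc). Their part in the Msn difference was not tested.

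Genes of proteins known to bind NHERF1, NHERF2 or PDZK1, most of them transporters, were listed together with the related PDZ scaffold gene Pdzd3, and mainly fell. Of 17 measured 10 fell, 1 rose and 6 did not pass, with a median of -0.76 (-0.80 against the male Cre-negative array), where 11.1% of all genes fell and 10.7% rose. With sex as a second factor 6 of these 11 calls were kept, and those lost were Slc9a3, Slc22a5, Slc22a12, Slc15a2 and Cftr. Without both arrays with other tissues 7 were kept, and the same genes except Slc15a2 lost theirs. The phosphate transporter gene Slc34a3 read 9.76, 9.79 and 9.49 in Cre-negative and 5.88, 6.29 and 6.43 in Cre-positive arrays, a difference of -3.48 ± 0.15 (limma adjusted p = 3.38e-05). The main phosphate transporter gene Slc34a1 was at -0.76 ± 0.09, the parathyroid hormone receptor gene Pth1r at -1.18 ± 0.10 and the sodium proton exchanger gene Slc9a3 at -0.47 ± 0.09. The anion exchanger gene Slc26a6 (-1.06 ± 0.08), the peptide transporter gene Slc15a2 (-1.04 ± 0.24), the urate transporter gene Slc22a12 (-1.02 ± 0.24) and the organic cation and carnitine transporter genes Slc22a4 (-1.48 ± 0.19) and Slc22a5 (-0.67 ± 0.13) also fell. Pdzd3, a PDZ scaffold related to PDZK1, fell by 1.14 ± 0.13 (limma adjusted p = 7.89e-04).

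Not every partner moved this way. Cftr, a chloride channel that binds NHERF1, rose by 0.95 ± 0.19 (limma adjusted p = 0.00918), a call lost with sex as a second factor (adjusted p = 0.098) and without both arrays with other tissues (adjusted p = 0.106). Pdzk1ip1, which encodes a small membrane partner of PDZK1 (-0.20 ± 0.08), and the phosphate and urate transporter gene Slc17a1 (-0.30 ± 0.10) did not pass, with limma adjusted p = 0.118 and 0.081. NHERF1 and NHERF2 transcripts, at -0.28 and -0.38, lay nearer to 0 than the median of this list, in which the scaffold gene Pdzd3 is counted. The difference between NHERF1 or NHERF2 and the listed genes was not tested.

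The inner ear uses relatives of these genes to build stereocilia, and none of these relatives passed. Their Cre-negative means ran from 4.64 to 8.20, some of them below the array medians of 5.55 to 5.64. Those of the microvillus genes ran from 7.06 to 11.24. A change in a weakly detected transcript can be understated on these arrays. The lack of calls therefore does not set this list apart from the microvillus genes. Of 8 measured genes 0 fell and 0 rose by limma, 1 was lower and 1 higher at an unadjusted p under 0.05 (33.4% of all genes in either direction), and the median was -0.03 (-0.04 against the male Cre-negative array). The smallest p-values were those of Ush1g (-0.29 ± 0.11, limma adjusted p = 0.0909) and Myo7a, which encodes the counterpart of myosin-7b (0.24 ± 0.10, adjusted p = 0.128).

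**Figure D3:**
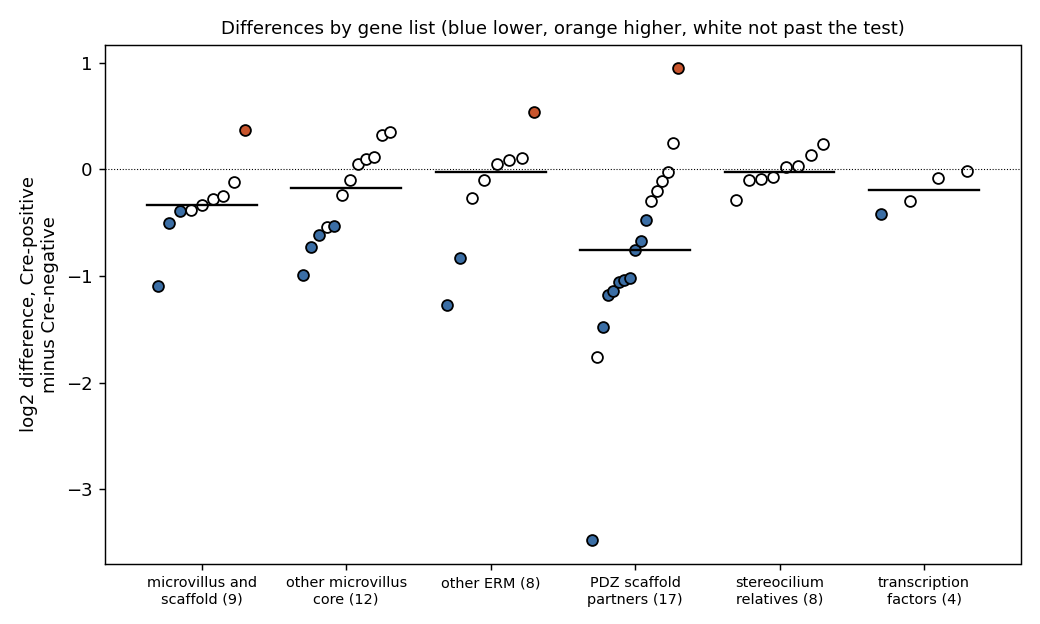
Log2 difference, Cre-positive minus Cre-negative (vertical axis), of every measured gene of the microvillus genes and of 5 related lists, with the number of measured genes in brackets and a bar at each list's median. Blue fell, orange rose and white did not pass at limma adjusted p under 0.05; the medians run from -0.76 for the PDZ scaffold partners to -0.03 for the other ERM genes and the stereocilium relatives.

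Most of the microvillus genes are made mainly by the proximal tubule in the kidney, and their values were set against proximal tubule markers in the same arrays. Of 11 measured proximal markers 10 fell and 0 rose, where 11.1% of all genes fell and 10.7% rose. The summed levels of these markers were 15.45 to 15.55 in Cre-negative and 14.06 to 14.19 in Cre-positive arrays. The glucose transporter gene Slc5a2 (-2.49 ± 0.16) and the megalin gene Lrp2 (-1.11 ± 0.10) were among those that fell. Of the 10 falls 9 held with sex as a second factor (not Slc13a3), and without both arrays with other tissues 8 (not Slc13a3 and Slc22a6). In bulk tissue, fewer proximal cells and less RNA per cell cannot be told apart. The median marker of each array was 1.26 lower in Cre-positive arrays (-1.26, and -1.14 against the male Cre-negative array).

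Relative to this median, 8 of the 9 microvillus genes were higher in all Cre-positive than in all Cre-negative arrays. The change was 0.75 for Vil1, 0.87 for Myo7b, 0.88 for Slc9a3r2, 0.93 for Ush1c, 0.98 for Slc9a3r1, 1.01 for Cdhr5, 1.13 for Espn and 1.62 for Ezr. Cdhr2 was the exception, with a change of 0.17 and overlapping groups. These values are a description, since markers and members were chosen with earlier results of these data known. The marker median itself changed by -1.26, so a gene without any change is also higher relative to it. The median difference of all genes was -0.011, and the share of all genes higher on this scale was not computed. The exact permutation p was 0.10 for each of the 8, the smallest possible (0.113 adjusted over the 9 genes), and 0.30 for Cdhr2. The marker median alone did not overlap between the groups, so these p-values cannot tell a change of a microvillus gene from that of the markers.

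**Figure D4:**
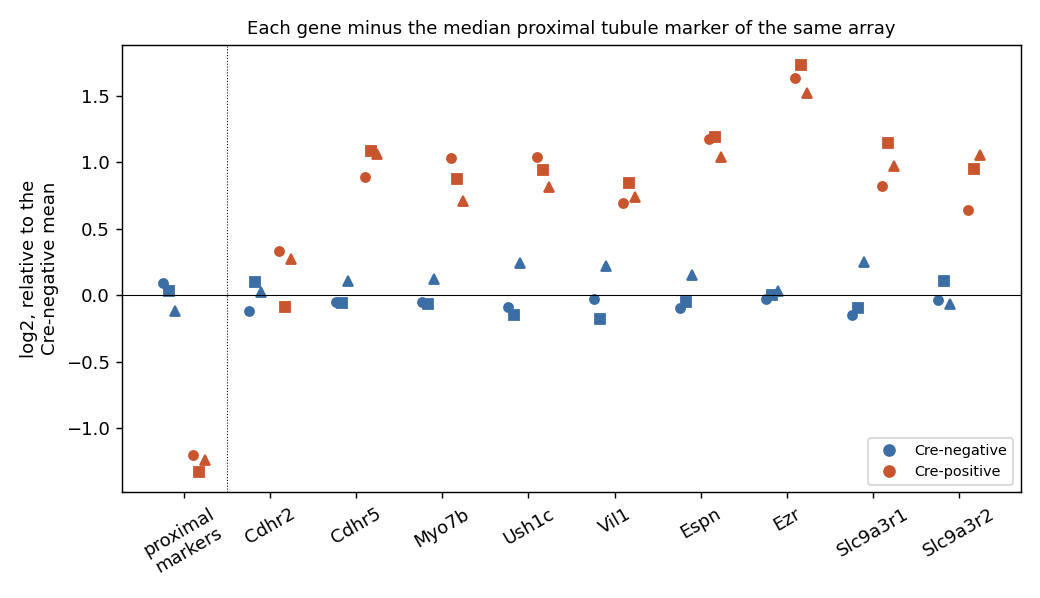
Log2 level of each microvillus gene minus the median of 11 proximal tubule markers in the same array, set to 0 at the Cre-negative mean (vertical axis), with the marker median itself at the left. Symbols are replicates (circle 1, square 2, triangle 3). All genes but Cdhr2 (0.17) lie higher in each Cre-positive array, up to 1.62 for Ezr. The marker median itself changed by -1.26, so a gene without any change would also lie higher.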

How the data were processed

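Total RNA of 6 kidney samples was labelled and hybridised to Affymetrix arrays, 1 per sample, per the labels' protocols. The authors deposited log2 values after RMA, which corrects background, quantile-normalizes arrays and summarises probe sets. The submitters' processing notes name RMA and Partek, and the genome build behind the probe sets is not given in the sources used here. The log2 scale was read from RMA's convention and the range, 1.89 to 13.59. RMA compresses differences of dim probe sets. Of 41345 probe sets, 23521 had exactly 1 symbol, which gave 22180 genes (the probe set of highest mean for each). Array medians were 5.55 to 5.64, and the number of arrays limits the precision.

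A limma 3.58.1 model (R 4.3.3; lmFit and eBayes) with the group as its only term was fitted to all 22180 genes without a filter, its two-sided p-values were adjusted by Benjamini-Hochberg, and the fit was tested on simulated data. The members and lists were chosen with earlier results of these data known. All members were named, and of each related list the genes past the threshold. In most of these lists the 2 of smallest p among the others were named too, and some genes of each marker list. Further genes were named outside this rule. Umod, Krt18, Cyp11b1, Myh4, Slco1a1, Abcc4 and the gene pairs were named after their values were seen. Sex was read from Xist and Uty. Tables and figures used Python 3.11.15, pandas 2.3.3 and matplotlib 3.10.9. Start sequences came from RefSeq (GRCm38.p6). Alternatives are in the closing section.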

Additional observations from a re-analysis of the deposited data

How the results depend on the processing

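Over all 9 microvillus genes and 19 alternatives no difference changed sign. Several alternatives leave the difference as it was, so its sign could not change there. These are both other thresholds, every row tested, the replicate block, trend and robust eBayes, and leaving out genes below the median level. Averaging probe sets also changes nothing for genes with 1 probe set, and male arrays alone repeat the estimate of the sex term. Over all alternatives the results lay on the same side of the threshold in 132 cases, lost a call in 22 and gained one in 17. The count of microvillus genes that fell (3) was 7 at adjusted p under 0.10 and without genes below the median level, 6 with median centring, 5 with array weights and with trend and robust eBayes, and 0 with male arrays alone (4 at an unadjusted p under 0.05 by limma). The count that rose (1, Ezr) was 0 at adjusted p under 0.01, with the sex term, with male arrays alone and without both arrays with other tissues. Leaving out 1 array at a time gave 2 to 4 falls and 0 to 1 rises. Over all genes 4844 were called, 2516 at adjusted p under 0.01, 2030 with the sex term, 1853 without both arrays with other tissues, 1101 with male arrays alone (assuming that the single Cre-negative array varies as the Cre-positive arrays do) and 3141 to 4885 without 1 array, the lowest without Cre-negative replicate 1. Median centring put 62.7% of called genes on the lower side, against 51% as deposited, and moved the median of all genes from -0.011 to -0.073. The cause of these changes was not tested. Fits that left out arrays also had fewer of them.

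For the microvillus core, the 4 falls became 2 with male arrays alone, 1 without both arrays with other tissues and 3 to 4 without 1 array, and the 0 rises became 2 at adjusted p under 0.10, 1 with array weights, second quantile normalization, trend and robust eBayes or without genes below the median level, and 0 to 1 without 1 array. For the ERM group, the 2 falls became 1 with the sex term and 0 with male arrays alone. Its 1 rise, and the 1 fall among transcription factors, became 0 at adjusted p under 0.01, with the replicate block, the sex term, male arrays alone and without both arrays with other tissues, and both were 0 to 1 without 1 array. The ERM rise was also 0 with probe sets of a gene averaged, and the transcription factor fall 0 with every row tested and with second quantile normalization. The 10 falls among PDZ scaffold partners became 7 with the sex term (Slco1a1 included) and 8 to 10 without 1 array, and the 1 rise 0 without both arrays with other tissues. With the sex term the rise counted was not Cftr but the transporter gene Abcc4 (0.86, limma adjusted p = 0.0192). Over all arrays Abcc4 was at 0.25 ± 0.24 and did not pass. Among stereocilium relatives, 0 falls became 1 at adjusted p under 0.10, with median centring and with second quantile normalization, and 0 rises 0 to 1 without 1 array.

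Replicate numbers did not pair the samples: deviations of same-numbered samples correlated at 0.03, -0.04 and -0.01, and 2 of 6 samples correlated best with their own number. With the replicate block, 3977 genes, 2 microvillus falls and 1 rise were called, and Myo7b had limma adjusted p = 0.0553. Scanner background was not used here, so how it limits dim probe sets was not measured.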

Other observations

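Slco1a1, an organic anion transporter gene listed among the partners of PDZK1, stood at 8.56 in Cre-negative replicate 3, the male Cre-negative array, and between 3.47 and 4.01 in the other 5 arrays, the 3 male Cre-positive arrays included. Its difference over all arrays was -1.76 ± 1.11 and did not pass (limma adjusted p = 0.324). With sex as a second factor it was -4.82 ± 0.21 (limma adjusted p = 3.84e-04, 3.84e-04 to 0.494 over all alternatives), which rests on 1 Cre-negative array. Tmigd1, a brush border adhesion gene of the microvillus core list, gave 10.12 in the same array against 9.41 and 9.40 in the other Cre-negative arrays and 9.16, 9.04 and 9.09 in the Cre-positive arrays. Its difference was -0.54 ± 0.19 over all arrays (limma adjusted p = 0.0775) and -1.02 ± 0.12 with sex as a second factor (limma adjusted p = 0.00515). Calml4 was likewise highest in that array. Among the 9 microvillus genes, Vil1, Slc9a3r1, Ush1c and Espn also had their highest value there, and Ezr, Slc9a3r2 and Cdhr2 their lowest Cre-negative value.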
